A study of Mus musculus with 16 samples.

Results

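The passage of mouse thymocytes from the double negative (DN) to the double positive (DP) stage was described from the open chromatin peaks of both stages. A DN peak that shared no base with any DP peak was called closed, a DP peak that shared no base with any DN peak was called gained, and a DN and a DP peak that shared at least 1 base formed a kept pair. The DN list held 150139 peaks and the DP list 107110, and they gave 58780 closed peaks, 17587 gained peaks and 94688 kept pairs, 171055 members in all. Both lists held peaks of chromosomes 1 to 19 only, with none on the sex chromosomes. The 4 stages of the series together held 476734 peaks, which include 115074 of CD4 single positive (SP4) and 104411 of CD8 single positive (SP8) thymocytes. Members were thus chosen by which peaks were called at DN and DP and, for kept pairs, by the change of their height, so these values are a description. The SP lists played no part in the choice.

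All 16 libraries came from wild type C57BL/6J mice at 9 weeks of age, with no treatment, and each of the 4 mice gave cells of every stage. DN cells were sorted as lineage negative cells without CD4, CD8 and CD3, and DP cells as lineage negative cells with CD4 and CD8. The DN gate therefore took all DN substages together. In ATAC-seq, a transposase cuts and tags accessible DNA, so that reads accumulate where chromatin is open. The authors pooled the 4 mice of a stage before calling peaks. Each stage is thus 1 list with no replicate error, no test between stages was possible, and a difference between the lists cannot be told apart from a difference between these pools. Peak lists also hold no read counts, so the depth behind each value is unknown from them. A peak that was not called can still lie over signal below the threshold. Peak height is stated in 2 ways, as fold enrichment over local background at the summit and as its percentile among all peaks of the same stage. Intervals of shares are 95% Wilson intervals, those of log2 ratios of 2 shares are delta-method intervals, and both cover counting error only.

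DN thymocytes comprise early progenitors with residual potential for other blood lineages and cells that have committed to the T lineage under Notch signalling and rearrange *Trb*, *Trg* and *Trd*. Cells that assemble a pre-T cell receptor pass β-selection, proliferate, switch on CD4 and CD8 and rearrange *Tra* as DP cells. RUNX factors, E proteins, TCF7, GATA3 and ETS factors act in these cells.

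The highest members show what the classes look like in sequence. The lines below give the summit with 50 bases on each side for 2 of the 3 closed and for the 3 gained peaks with the highest fold enrichment, on the plus strand of GRCm38 (mm10) from the RefSeq assembly. Capitals mark matches to any of 34 short factor motifs, described with the motif results.
Closed, near Qdpr, chr5:45323723-45323823: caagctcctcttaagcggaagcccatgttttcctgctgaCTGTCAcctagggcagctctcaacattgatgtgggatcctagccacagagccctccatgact
Closed, near Ifi44, chr3:151729922-151730022: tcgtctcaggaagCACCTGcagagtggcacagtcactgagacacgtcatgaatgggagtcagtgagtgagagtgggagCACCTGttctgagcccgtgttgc
Gained, near Phf20l1, chr15:66602115-66602215: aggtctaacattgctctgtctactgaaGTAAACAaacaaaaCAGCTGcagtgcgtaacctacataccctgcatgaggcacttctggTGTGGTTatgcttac
Gained, near Tbl1xr1, chr3:21610498-21610598: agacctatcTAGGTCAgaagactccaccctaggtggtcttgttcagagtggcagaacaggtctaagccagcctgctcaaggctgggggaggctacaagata
Gained, near Scaper, chr9:55708445-55708545: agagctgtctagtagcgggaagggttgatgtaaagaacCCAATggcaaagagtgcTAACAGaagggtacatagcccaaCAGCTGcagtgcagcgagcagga

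Both closed windows held a match to 1 of the 34 motifs and had no soft-masked (repeat) base. The gained windows near *Phf20l1* and *Scaper* held matches to 3 motifs each. The window near *Tbl1xr1* held the letters TAGGTCA of the ROR motif, and 76.2% of its bases were soft-masked.

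Closed peaks outnumbered gained peaks by 3.34 to 1. They made up 39.2% of the DN list (38.9 to 39.4%), and gained peaks 16.4% of the DP list (16.2 to 16.6%). The closed share exceeded the gained share on 19 of 19 chromosomes, and the ratio of closed to gained peaks ran from 2.45 on chromosome 15 to 4.25 on chromosome 4. The lengths of the lists bear on this excess. The DN list was longer by 43029 peaks and closed peaks exceeded gained ones by 41193. When the DN list was cut by q-value to the length of the DP list, 28271 closed and 28320 gained peaks were left, a ratio of 0.998. Lists of equal length give nearly equal numbers by construction. Closed peaks held 25.4% of all bases in DN peaks and gained peaks 8.08% of those in DP peaks.

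Members that changed class were low in their lists. The median percentile was 30.4 for closed and 21.8 for gained peaks, against 64.3 for kept DN and 56.8 for kept DP peaks. Closed peaks were also narrower, with a median width of 160 bp (gained peaks 132 bp) beside 293 bp for kept DN and 250 bp for kept DP peaks. Of DN peaks below the 10th percentile 59.7% were closed, and of those at the 90th or higher 6.55%. The same shares of the DP list were 40.9% and 0.682% for gained peaks. At or above the 75th percentile lay 3933 closed peaks (6.69%) and 291 gained peaks (1.65%).

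**Figure D1:**
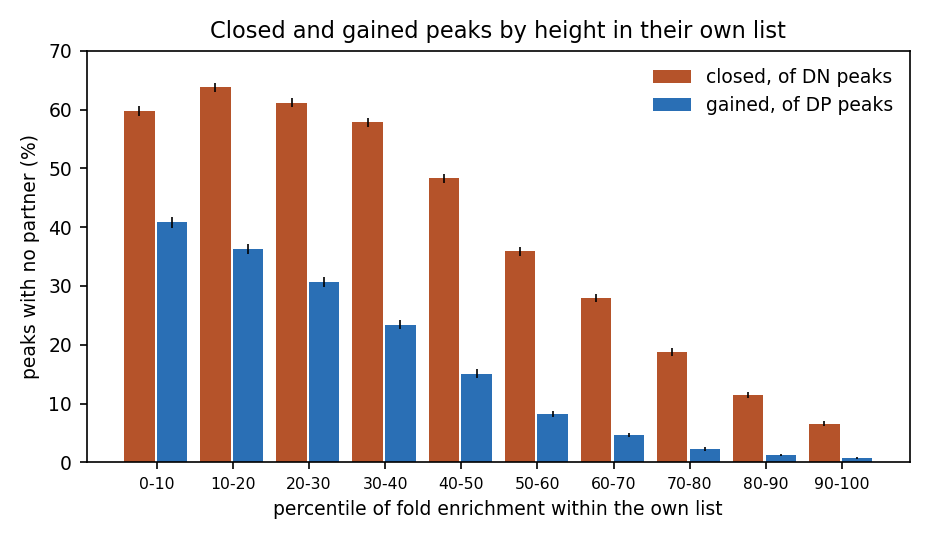
Share of DN peaks that were closed (orange) and of DP peaks that were gained (blue), in percent, by percentile of fold enrichment within the own list in steps of 10. Bars are shares of pooled lists and whiskers 95% Wilson intervals (counting error only), and both shares are lowest in the highest step, at 6.55% and 0.682%.

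The rule has a threshold of 1 shared base, and few members lay close to it. There were 99 pairs that shared 1 to 10 bases, with a median percentile of 29.3 at DN and 16.6 at DP. On the other side, 50 closed peaks lay 1 to 10 bp from a DP peak (median percentile 19.5), and 37 gained peaks lay 1 to 10 bp from a DN peak (median percentile 11.6). A peak of the other stage lay within 1000 bp of 15205 closed peaks and of 7726 gained peaks. The remaining 43575 closed and 9861 gained peaks stood at least that far away, a ratio of 4.42. The longer DN list bears on this ratio too, as gained peaks were set against more peaks. The lowest members were crowded among peaks of their own stage. Of the 4256 closed peaks below the 5th percentile, 68.4% had another DN peak within 1000 bp, against 35.2% of the 35538 at the 25th percentile or higher. Of gained peaks below the 5th percentile, 68.3% had another DP peak as near.

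Of the 6 highest closed peaks, 5 are described here, at 9318 to 60582 bp from the nearest DP peak, and none of them was at a promoter. The first, on chromosome 5 in an intron of another transcript at 110071 bp from *Qdpr*, had a fold enrichment of 37.7, and the nearest DP peak was 60582 bp away. It was called again at SP4, at the 42.3rd percentile. A peak between genes beside *Ifi44* had 37.1 and was called at neither SP stage. An intergenic peak near *Tmem135* had 35.98 and was called at both SP stages, at the 92.8th percentile of the SP4 list. The peaks near *Pappa2* (35.2) and in *Mitf* (35.05), which encodes a transcription factor of melanocytes and mast cells, were called at neither SP stage. These 5 heights are above those of at least 99.8% of the DN list.

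The 6 highest gained peaks stood closer to peaks of the other stage, at 1978 to 11229 bp from the nearest DN peak. A peak in an intron of *Phf20l1* had a fold enrichment of 37.1 and was called at both SP stages. The peak far from *Tbl1xr1*, at 465983 bp, had 30.9 and was called at both as well. The next were in an exon of *Scaper* (29.9, called at SP4 alone), near *Chd1* (28.7, both), in an intron of *Chst10* (28.0, neither) and in an intron of *Ubqln1* (27.1, both). Of these 6 gained peaks 4 were thus called at both SP stages. Among all gained peaks 22.5% were, and among those at the 75th percentile or higher 38.1%.

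Closed and gained peaks shared the same place in the annotation, mostly introns and intergenic DNA. Promoters, taken as the 200 bp upstream of a transcription start site (TSS), were touched by 5.68% of closed peaks (5.50 to 5.87%) and 5.45% of gained peaks (5.12 to 5.79%). The closed share was the higher on 10 of 19 chromosomes, and its sign turned with other promoter definitions, so no direction is given. Kept peaks touched promoters in 20.7% (DN) and 19.9% (DP) of cases, above the closed and gained shares on 19 of 19 chromosomes. Seen from the annotation, 15.0% of DN promoter peaks were closed, beside 38.1% of exonic, 44.3% of intronic and 44.7% of intergenic DN peaks. At DP, 5.10% of promoter peaks were gained, against 19.6% of intronic ones. The median distance to the nearest TSS was 5978 bp for closed and 6034 bp for gained peaks, and 3260 bp for kept DN peaks.

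Whether a member was called again later was not used by the rule, and here the classes separated. Of closed peaks, 31.3% (30.9 to 31.7%) overlapped a peak at SP4 or SP8, of gained peaks 45.3% (44.6 to 46.0%) and of kept DN peaks 88.0%. Gained peaks exceeded closed peaks on 19 of 19 chromosomes. They also did so within each of 4 height ranges, with 40.6% against 27.7% below the 25th percentile and 62.9% against 43.6% at the 75th or higher. Peaks called at both SP stages were 14.5% of closed, 22.5% of gained and 75.9% of kept DN peaks. The SP4 list, which is longer, took more members than the SP8 list in both classes, with 24.01% and 21.7% of closed and 36.8% and 31.0% of gained peaks. Members called again were not high at the SP stages in either class. The median percentile was 36.1 at SP4 and 34.9 at SP8 for closed peaks, and 36.3 and 30.3 for gained peaks.

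**Figure D2:**
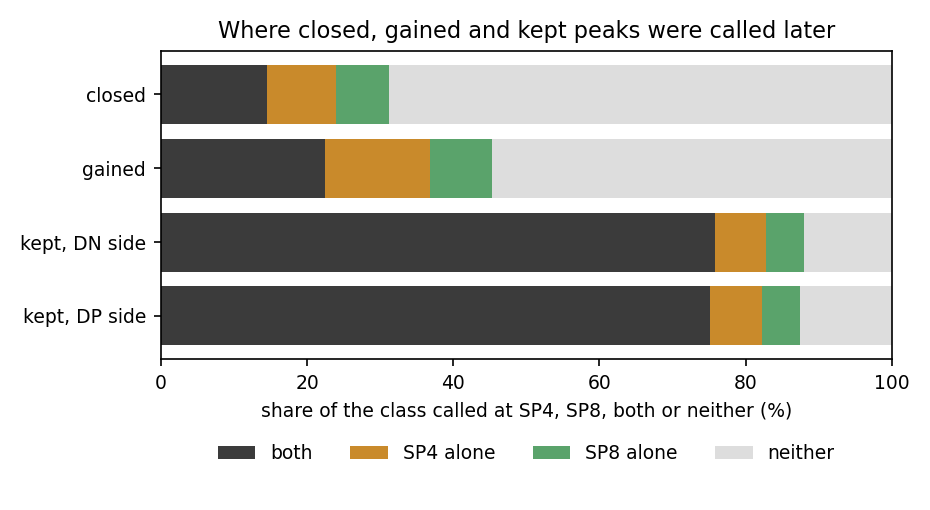
Share of closed, gained and kept peaks (percent of each class, from 1 pooled list per stage) that overlapped a peak at both SP stages, at SP4 alone, at SP8 alone or at neither. Neither holds 68.7% of closed and 54.7% of gained peaks.

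The sequence at the summits was not used by the rule either, and 34 short consensus motifs were searched on both strands of the same summit windows. Matches are letters in DNA and not bound factors. Of the 34 motifs, 11 were found in a larger share of closed windows, 11 in a larger share of gained windows, and 12 had a log2 ratio whose counting interval covered 0. Closed and gained windows had the same median GC content of 52.5%. Chromosomes 1 to 19 had 41.9%, so the tile shares given below are not matched for base content. Mostly soft-masked windows were 7.23% of closed and 11.2% of gained windows.

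The RUNX letters TGTGGTT stood out among closed peaks. They were in 8.80% of closed and 2.52% of gained windows, against 2.35% of all tiles of the same length of chromosomes 1 to 19, a log2 ratio of closed to gained of 1.80 (1.67 to 1.94), with closed the higher on 19 chromosomes. The NFAT letters TGGAAAA followed at 1.09% and 0.569%, both below the 3.32% of tiles, so that closed peaks were only less poor in them. The letters TGACGTCA of CREB and ATF factors were rare, at 0.116% and 0.0625%, and the interval of their ratio covered 0. The letters TGGGAA, shared by RBPJ, the nuclear partner of Notch, and Ikaros, were in 8.71% and 5.22% (tiles 8.65%). GATA letters (AGATAA) were in 3.84% and 2.76% (tiles 6.77%), and IRF letters (GAAANNGAA) in 2.52% and 1.82% (tiles 3.94%). Of these 6, RUNX and the rare CREB and ATF letters exceeded the tile share in closed peaks, TGGGAA was close to it, and the other motifs were below it. Kept DN peaks had CREB and ATF letters in 0.253%, above the closed share, and RUNX letters in 5.18%, below it.

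At the other end, the ROR letters TAGGTCA were in 0.483% of closed and 2.72% of gained windows (tiles 0.992%), a log2 ratio of -2.49 (-2.71 to -2.28). The gained share was the higher on all 19 chromosomes. The related letters AAGGTCA of orphan nuclear receptors, which differ from it in the first base, were in 0.743% and 1.41% (tiles 1.85%). ETS letters in the form ACAGGAAG were in 4.45% and 7.49% (tiles 0.879%), with gained the higher on 19 chromosomes, and in the form CCGGAAG of promoters in 0.619% and 0.955%. NRF1 letters (GCGCANGCG) were in 0.128% and 0.188% with an interval that covered 0, and YY1 letters (AAGATGGC) in 0.463% and 0.591%. The YY1 direction turned among peaks at the 50th percentile or higher, with a log2 ratio of 1.09. ROR, both ETS forms and NRF1 were above the tile share in gained peaks, and AAGGTCA and YY1 were below it. Kept DP peaks give another reference. They had ACAGGAAG in 7.13%, near the gained share, so closed peaks were the low class for these letters. CCGGAAG was in 2.73% and the NRF1 letters in 0.535% of kept DP peaks, both above the gained shares. ROR letters were in 0.737% of kept DP peaks, below the gained share.

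**Figure D3:**
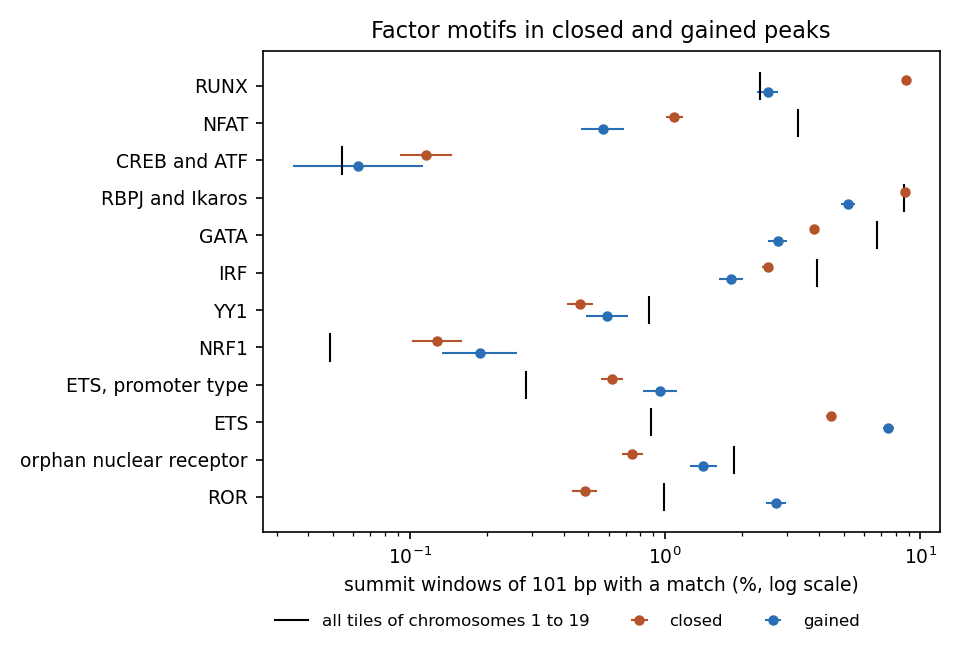
Share of summit windows with a match (percent, log scale) for the 6 motifs with the highest and the 6 with the lowest ratio of closed (orange) to gained (blue) share. Whiskers are 95% Wilson intervals, black lines the share of all tiles of the same length of chromosomes 1 to 19, and RUNX (8.80% and 2.52%) and ROR (0.483% and 2.72%) lie farthest apart in opposite directions.

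Both motifs became more common with height in their own class. RUNX letters rose from 5.96% of closed peaks below the 25th percentile to 17.7% of those at the 75th or higher, while gained peaks had 2.40% and 2.06% in the same steps. Among kept DN peaks RUNX letters also rose, from 2.60% to 7.36%, so this rise was not particular to closed peaks. ROR letters went from 1.81% to 15.1% of gained peaks (44 of 291, 11.5% at the lower bound), while closed peaks had 0.564% and 0.280%. Matches also centred on the summits. In closed peaks RUNX matches reached 1.10 per kb in the 25 bp before the summit and were 0.259 per kb at 225 to 250 bp before it, and gained peaks had no such crest, with 0.266 and 0.225 per kb. Kept peaks had a lower RUNX crest, with 0.637 and 0.229 per kb at DN and 0.645 and 0.239 per kb at DP. ROR matches in gained peaks reached 0.305 per kb at the summit and 0.0978 per kb at the same edge, whereas in closed peaks they dipped to 0.0476 at the summit. Leaving out mostly soft-masked windows gave ROR shares of 0.501% and 2.75%, and RUNX shares of 8.51% and 2.30%.

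**Figure D4:**
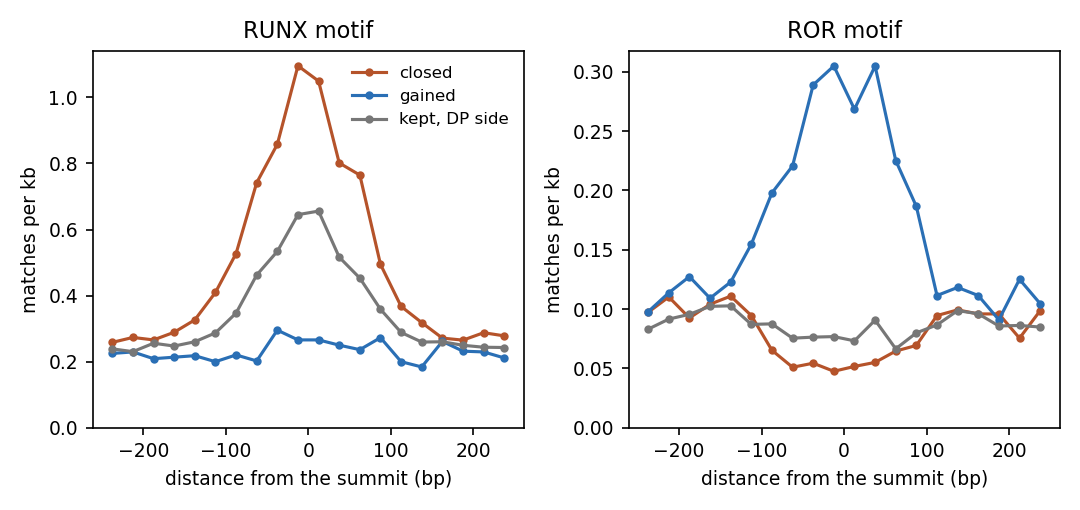
Matches per kb to the RUNX motif (left) and the ROR motif (right) by distance from the summit in steps of 25 bp, for closed (orange), gained (blue) and kept DP peaks (grey). RUNX matches crest at the summits of closed peaks at 1.10 per kb, and ROR matches at those of gained peaks at 0.305 per kb.

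The lines below show summit windows of high closed peaks with RUNX letters and of high gained peaks with ROR letters, in capitals, on the plus strand of GRCm38. They were chosen after the shares were known, to show the letters in place, and TGACCTA is TAGGTCA on the other strand.
Closed with RUNX letters, near Agtr1b, chr3:20551777-20551877: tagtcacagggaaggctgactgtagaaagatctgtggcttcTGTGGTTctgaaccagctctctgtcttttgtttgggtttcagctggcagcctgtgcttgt
Closed with RUNX letters, near Epha7, chr4:28912176-28912276: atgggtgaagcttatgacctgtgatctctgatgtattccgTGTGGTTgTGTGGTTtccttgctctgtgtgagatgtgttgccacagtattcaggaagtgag
Closed with RUNX letters, near Asic2, chr11:81923219-81923319: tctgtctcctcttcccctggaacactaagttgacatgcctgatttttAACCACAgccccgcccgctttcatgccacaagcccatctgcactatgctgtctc
Gained with ROR letters, near Pik3r1, chr13:101597956-101598056: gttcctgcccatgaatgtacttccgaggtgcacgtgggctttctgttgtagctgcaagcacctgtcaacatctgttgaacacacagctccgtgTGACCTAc
Gained with ROR letters, near Stxbp4, chr11:90512672-90512772: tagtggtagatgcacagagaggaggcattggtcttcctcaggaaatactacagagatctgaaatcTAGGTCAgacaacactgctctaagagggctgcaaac
Gained with ROR letters, near Usp44, chr10:93810898-93810998: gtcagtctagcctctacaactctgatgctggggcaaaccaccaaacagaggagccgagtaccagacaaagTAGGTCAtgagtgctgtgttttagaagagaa

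The closed peak in an intron of *Epha7*, an ephrin receptor gene, held the RUNX letters in 2 copies with 1 base between them, at a fold enrichment of 33.5, and was called at neither SP stage. The gained peak near *Pik3r1*, which encodes a regulatory subunit of PI3 kinase, had 26.02 and was called at both. The bases just before TAGGTCA, which the search did not use, also differed between classes. Over 491 matches in gained windows, the base 3 before the match was A in 65.4% (closed 25.8% of 287, all matches of the genome 27.9%). The base 2 before it was A or T in 86.2% (closed 49.5%, genome 63.0%), and the base just before it was A or T in 20.6% (closed 42.5%, genome 55.8%). Farther out, at 4 to 6 bases before the match, A or T made up 45.6 to 56.8% in gained windows. A full ROR element is known to carry A and T rich bases before this core. Gained peaks with ROR letters were called at neither SP stage in 71.8% of 479 cases, against 54.2% of gained peaks without them. Closed peaks with and without RUNX letters were called at neither in 68.0% and 68.8%.

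E-box letters tracked the later calls in both classes, an observation made after the values were seen. CAGCTG, a core bound by E proteins, was in 13.5% of closed and 9.97% of gained windows. Among closed peaks it was in 15.9% of those called at neither SP stage and in 6.76% of those called at both. Among gained peaks these shares were 12.3% and 6.28%. The core CAGGTG had 19.3% and 8.32% among closed and 18.9% and 8.05% among gained peaks.

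Kept pairs mostly held their rank, which is set within lists of unequal length. The percentile moved by less than 25 points in 70319 pairs, was lower at DP by 25 points or more in 15935 (16.8%) and higher in 8434 (8.91%). The rank correlation of DN and DP percentiles over pairs was 0.634 (pairs are not independent and share their mice). Just inside and outside the threshold, 1158 pairs moved by 25 to 26 points and 1279 by 24 to 25. The pairs that moved furthest came from peaks that were split at 1 stage, and a high peak stood at these loci at both stages. A wide DN peak in an intron of *Atp10a* had a fold enrichment of 33.4. It overlapped a small DP peak with 2.50 (percentile 1.97), which gave the largest fall, and a second DP peak with 21.1 (percentile 95.2). The wide DN peaks near *Msantd4* and *Tpcn2*, at the promoter of *Rab11b* and in *Tex14* likewise overlapped a small DP peak and a high one. Over these 5 loci the higher DP peak stood at percentile 94.7 to 98.5. The 5 pairs that rose furthest, at *Srm* (2 pairs), near *E2f1*, at *Ddx24* and at *Fnbp4*, were of the same kind. A small DN peak at the 1.65th percentile or lower lay under a wide DP peak, which also overlapped a DN peak at percentile 98.6 to 99.5. These 10 moves do not describe the loci as a whole.

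Of the pairs that rose 53.3% were one-to-one, against 79.8% of those that fell and 87.4% of those that moved by less than 25 points. With one-to-one pairs alone, 5.72% rose and 16.2% fell, and the promoter share of rising pairs dropped from 36.3% to 11.4%. With the highest DN and DP peak of each merged region, an alternative added after seeing the data, 5.51% of 86194 regions rose and 15.5% fell, with 13.0% of rising regions at promoters. Among one-to-one pairs the largest rises were at the promoter of *Dido1*, from percentile 1.11 to 91.6, and in exons of *Ubap1l* (11.6 to 97.0) and *Abcc3* (6.10 to 89.7). The largest falls were in *Lmbrd2* (98.9 to 4.59), near *Mak16* (96.4 to 3.39), near *Sox10* (96.6 to 4.20), near *Slco3a1* (96.8 to 4.59) and in *Sdk1* (99.0 to 7.70). ETS letters were in 11.9% of one-to-one peaks that rose and 5.35% of those that fell, and RUNX letters in 2.91% and 8.88%. The promoter form of the ETS letters was in 3.02% and 0.755%.

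Genes were read through the peaks whose nearest protein-coding gene was within 50 kb, of which 38.1% of 134527 at DN were closed and 15.8% of 96758 at DP were gained. Against these shares, 21 lists of genes were compared. Of all 20807 protein-coding genes, 11185 had more closed than gained peaks and 1757 more gained than closed, which is the background for the gene counts of each list. Of 21 lists, 20 held more closed than gained peaks, and the DP stage genes were the exception, with 61 closed of 247 DN peaks (24.7%) and 82 gained of 269 DP peaks (30.5%). When both stages had equal numbers of peaks, 14 lists did. Genes of progenitors and alternative lineages had 46.8% of DN peaks closed and 10.6% of DP peaks gained, and more closed than gained peaks at 14 of 16 genes. *Meis1*, a homeobox factor of stem and progenitor cells, had 25 closed and 0 gained peaks. *Mef2c* and *Bcl11a* had 14 closed and 0 gained each, and *Erg* 18 and 7. *Erg* encodes an ETS factor of stem cells, *Mef2c* and *Bcl11a* factors of progenitors and B cells.

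**Figure D5:**
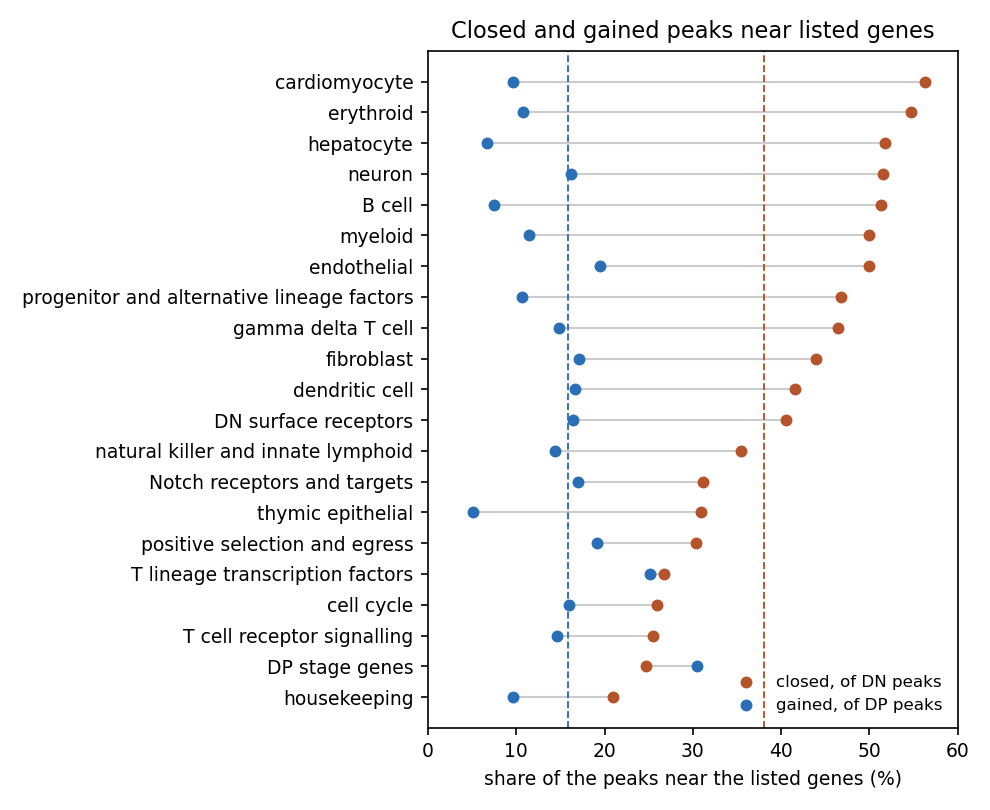
Share of DN peaks that were closed (orange) and of DP peaks that were gained (blue) near the genes of 21 lists, in percent of the peaks assigned to the list, with the shares over all protein-coding genes as broken lines (38.1% and 15.8%). DP stage genes are the list in which the gained share (30.5%) exceeds the closed share (24.7%).

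Genes of DN surface receptors had 47 closed (40.5%) and 13 gained peaks (16.5%), close to the shares over all genes. *Kit*, the receptor for stem cell factor, had 9 closed and 0 gained peaks. Its highest closed peak, in an intron, had a fold enrichment of 21.4 and percentile 95.8, and returned at SP8 alone at percentile 23.0. *Il2ra*, the CD25 marker of middle DN stages, had 9 closed and 1 gained, the closed ones at or below percentile 42.4. *Cd34* had 8 and 1, and *Cd93* 4 and 0. Of the 10 genes 8 had more closed and 2 more gained peaks, the latter being *Cd44* with 2 closed and 4 gained and *Il2rb* with 1 and 2. The peak over the start of *Cd34* stood at percentile 96.3 at DN and was called at no other stage. The start of *Hes1*, a Notch target, was likewise called at DN alone (72.3).

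Notch receptors and targets had 65 closed (31.1%) and 29 gained (17.0%). *Notch1* had 15 closed peaks, none above percentile 33.3, and 7 gained ones. Of its 28 kept pairs 10 rose and 1 fell, where 8.91% of all pairs rose and 16.8% fell. These pairs came from 28 DN and 25 DP peaks, so some shared a DP peak. How many of the 10 were one-to-one was not counted. *Notch3* had 4 closed and 2 gained peaks, *Igf1r* 18 and 5, *Hes1* 8 and 5, and *Ptcra*, the pre-T cell receptor α chain, 0 and 0. T lineage transcription factors had nearly equal numbers, 163 closed (26.8%) and 145 gained (25.1%), and of 16 genes 9 had more closed and 6 more gained peaks. *Bcl11b*, the commitment factor, had 20 closed and 13 gained peaks, all but 2 of the closed and 1 of the gained below the 25th percentile. *Runx1* had 30 and 15, and *Runx3* 15 and 5. *Tcf7* had 3 and 10, with the gained ones at or below percentile 10.1, *Gata3* 5 and 6, and *Tcf12*, an E protein, 19 and 10. *Satb1*, a chromatin organiser of thymocytes, had 6 and 32.

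Among DP stage genes the gained peaks were uneven. *Themis*, needed for positive selection, had 5 closed and 24 gained peaks, *Id3* 1 and 6, *Ets2* 5 and 10, and *Arpp21* went the other way with 17 and 9. *Cd8a* had 1 and 4, *Cd8b1* 2 and 2, and *Cd4* 1 and 2, while *Rag1* and *Rag2* had none of either. The starts of *Rag1* and *Rag2* were called at every stage, at percentiles 84.8 and 89.0 at DN, 88.9 and 91.2 at DP and 56.0 to 67.2 at the SP stages. The start of *Ptcra* stood at 94.5 and 92.3 at DN and DP and at 28.2 and 15.0 at SP4 and SP8. The starts of *Cd4*, *Cd8a* and *Cd8b1*, the genes of the sorting markers, were called at both stages, at percentiles 37.2, 71.4 and 96.3 of the DN list and 16.1, 56.1 and 87.7 of the shorter DP list. Percentiles of lists of unequal length do not by themselves measure a change in height, so these starts were no check of the labels.

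T cell receptor signalling genes kept most of their peaks, with 64 closed (25.5%) and 32 gained (14.6%), and 13 of 15 genes had more closed than gained. *Fyn* had 17 and 8, *Cd247* 9 and 4, *Cd6* 6 and 2, and *Prkcq* 7 and 4. Genes of positive selection and egress had 44 and 23, with *S1pr1*, the receptor for exit from the thymus, at 12 and 1, *Zbtb7b* at 4 and 1, and *Nr4a1* at 1 and 4. Cell cycle genes had 22 closed (25.9%) and 12 gained (16%). *Ccnd2* and *Ccnd3*, the D-type cyclins of cells entering division, went apart, with 10 closed and 2 gained at *Ccnd2* and 0 and 6 at *Ccnd3*. *Mcm5* had 4 and 0, and *Cdk1* 3 and 1. Housekeeping genes had the lowest closed share, 13 of 62, and 9.62% gained, with *Ywhaz* at 6 and 1.

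Most lists of genes that mark other blood cells had a closed share above the 38.1% over all genes. Natural killer and innate lymphoid genes were below it. The lineage antibodies of the sort were directed against erythroid, B, myeloid, dendritic, natural killer and gamma delta T cells, and how many such cells remained was not measured here. The closed share was 51.3% for B cell, 50% for myeloid, 54.7% for erythroid, 41.6% for dendritic cell, 46.4% for gamma delta T cell and 35.4% for natural killer and innate lymphoid genes, and 3 to 18 peaks per list were gained. Most lists of cells outside the blood were above 38.1% too, with 51.6% for neuron, 51.7% for hepatocyte and 56.3% for cardiomyocyte genes. Fibroblast genes had 44.0% and endothelial genes 50%, while thymic epithelial genes were below it at 30.9%. Large differences were at *Pax5* (16 closed, 0 gained), *Ebf1* (16 and 2), *Fcgr3* (9 and 0), *Ank1* (16 and 2), *Tcf4* (19 and 5), *Zbtb16* (23 and 0), *Il1r1* (11 and 1), *Hand2* (14 and 0), *Pdgfra* (13 and 1) and *Kdr* (11 and 0). *Cd79a*, *Mpo*, *Elane*, *Ncr1* and *Csf1r*, the last from the DN surface receptor list, had no peak over their start at any stage. *Lyz2* (percentile 88.4), *Pax5* (90.6) and *Ryr2* (89.2) had 1 at DN alone, examples chosen after their values were seen. Other markers went otherwise. The starts of *Cr2*, *Ebf1*, *Blk*, *Cd79b* and *Itgam* were called at all 4 stages, and that of *Cebpb* at DP but not at DN. Starts were called at DN and DP for 5 and 4 of 10 B cell genes and for 4 and 2 of 10 myeloid genes. The part of other cells in the closed peaks was not tested.

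The largest excess of closed over gained peaks fell on long genes. *Gm20388*, a readthrough model of 4435 kb that covers many others, had 195 and 35. After it came *Fgfr2* (50 and 5, a model of 2961 kb), *Cdk6* (45 and 2), *Pde4d* (47 and 9), *Wwox* (52 and 14), *Hdac9* (40 and 3), *Tenm4* (37 and 0), *Tshz2* (42 and 6), *Agap1* (36 and 1) and *Rapgef2* (38 and 3). *Cdk6* spans 189.5 kb and encodes a kinase that acts with D-type cyclins in early thymocytes. Its 45 closed peaks had a median percentile of 15.9, and 4 were called at an SP stage, beside 31.3% of all closed peaks. At *Tenm4* and *Hdac9* the median percentiles were 48.2 and 49.1, so these closed peaks were of middle height.

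The largest excess of gained over closed peaks was at *Satb1* (32 gained, 6 closed), followed by *Ssbp2* (31 and 10), *Slit3* (25 and 6), *Themis* (24 and 5), *Glcci1* (19 and 1), *Camk4* (19 and 3), *Stx8* (19 and 4), *Gm45062* (17 and 4), *Nek10* (14 and 1) and *Trpm1* (15 and 3). These genes spanned 87.9 kb (*Glcci1*) to 587.3 kb (*Slit3*), a range that overlaps the 189.5 to 4435 kb of the genes on the closed side. The gained peaks at *Satb1* were low, with a median percentile of 4.10 and a maximum of 43.1. Of these 32 peaks, 24 were called at an SP stage, beside 45.3% of all gained peaks. At *Themis* the median was 16.4, and 6 of 24 were called later, below the share of all gained peaks. Those at *Slit3*, a ligand of Robo receptors, reached percentile 93.4 in an exon (chromosome 11, 35305996 to 35306262, fold enrichment 19.2), and 13 of 25 were called later. Near *Camk4*, a calcium-dependent kinase of T cells, the highest gained peak stood at percentile 94.8 at 30752 bp from the gene, and 15 of 19 were called later. At *Stx8* the highest was at percentile 81.3. *Glcci1*, a glucocorticoid-induced gene, had 3 DN and 22 DP peaks, and the peak over its start was called at DP and at neither SP stage nor DN.

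Peaks over gene starts mostly stayed. Of 20725 protein-coding genes, 11418 had a peak over a TSS at both stages, 1061 at DN alone and 412 at DP alone. The lost starts were 8.5% of the 12479 with a DN peak and the opened starts 3.48% of the 11830 with a DP peak. Of the starts called at DP alone 73.3% were called again at an SP stage, and of those at DN alone 25.9%, the same order as for all members.

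The antigen receptor loci differed among themselves. At *Trg*, which rearranges at the DN stage, 23 of 39 DN peaks were closed (59.0%) and 3 of 19 DP peaks were gained. Of the 23, 21 were called at neither SP stage, where 68.7% of all closed peaks were. The highest of the 23, near *Tcrg-C3*, stood at percentile 93.4 and was called again at SP8. At *Trb*, 31 of 79 DN peaks were closed (39.2%, the same as in the whole list) and 6 of 53 DP peaks gained (11.3%). Of these 31, 20 were called at neither SP stage, near the 68.7% of all closed peaks. A V segment was nearest to 27 of the 31, which was not counted for the other DN peaks of the locus. The highest lay beside *Trbv7* at percentile 91.2. At *Tra* and *Trd*, which overlap, 40 of 204 DN peaks were closed (19.6%) and 45 of 213 DP peaks gained (21.1%), so that this was the locus with more gained than closed peaks. Of the gained peaks there 27 overlapped a gene segment, beside 11 of the closed. This overlap was not counted for the kept peaks of the locus. The highest gained peak was over *Trav19* at percentile 98.1 and was called at neither SP stage. *Igh* lost 69 of 224 (30.8%) and gained 28 of 179 (15.6%). *Igk* held 11 DN and 9 DP peaks. The segments of a family are near-identical in places, and reads were kept only where they mapped uniquely, so the number of peaks over them is uncertain.

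A run of closed regions held 1.87 regions on average, one of gained regions 1.20 and one of kept regions 2.34. Of the merged DN and DP regions in genomic order, the longest unbroken stretches of closed ones were 2 of 32 regions. These covered 754.8 kb around *Ajap1* on chromosome 4 and 1831 kb around *Adamts9*, *Magi1* and *Prickle2* on chromosome 6. The next were 30 regions in 473.9 kb at *Tln2* on chromosome 9, 28 regions at *Epb41l3*, *L3mbtl4* and *Arhgap28* on chromosome 17 and 26 regions at *Lgr5*, *Tspan8* and *Zfc3h1* on chromosome 10. The median percentile within these 5 runs was 34.3 to 50.7. Runs of gained regions reached 12 and 11 in *Slit3*, 10 and 8 at *Glcci1* and 10 near *Ddx18*.

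In windows of 1 Mb with 20 or more peaks the median closed share was 39.6% and the median gained share 14.9%, and 44 of 1732 windows had more gained than closed peaks. Of windows with 20 or more DN peaks, the closed share was highest on chromosome 17 from 67000001 to 68000000, which holds *Ptprm* and *Lama1*, at 43 of 47 peaks (91.5%). The next were on chromosome 9 at *Hcrtr2* (19 of 21) and on chromosome 12 at *Nkx2-1* and *Pax9* (18 of 20). Of windows with 20 or more DP peaks, the gained share was highest on chromosome 14 at *Nek10* (30 of 47, 63.8%), chromosome 11 at *Slit3* (25 of 41, 61.0%) and chromosome 13 at *Rasa1* and *Ccnh* (15 of 25).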

How the data were processed

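ATAC-seq libraries of 4 stages were made from 4 mice (16 samples). Following the study's methods, the authors aligned reads to mm10 with BWA, removed duplicates, kept uniquely mapped proper pairs, reduced each library to the median depth, pooled the mice of each stage and ran MACS2 (5% FDR). Versions are not given in the sources used here. The score, the fold enrichment and the −log10 q-value of each peak are deposited values, made by the authors on pooled reads. Without replicates or counts, shares carry 95% Wilson intervals and no p-value was computed.

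Overlaps used Python 3.11.15 with numpy 2.4.6, pandas 2.3.3 and statsmodels 0.14.6. Annotation was GENCODE M21 with RefSeq on GRCm38, and a peak belonged to its nearest protein-coding gene within 50 kb. Motif letters were matched exactly. Named features were the 6 highest closed and gained peaks, the 5 largest moves of pairs, the 10 largest gene excesses, up to 4 genes per list plus stage genes, the 5 longest runs, the top 3 windows and the 6 motifs at each end. Others are described as chosen later. Members, lists and motifs were chosen with earlier results of these data known. Code was tested on simulated lists. Alternatives changed overlap, q threshold, list length, height, promoter, window and gene distance. Results for some named genes are not reported here.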

Additional observations from a re-analysis of the deposited data

How the results depend on the processing

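No paired analysis was possible because peaks were called on the pooled mice of each stage, and for the same reason no mouse could be left out. With equal numbers of peaks there were 28271 closed and 28320 gained peaks (ratio 0.998). Among peaks at the 50th percentile or higher there were 15087 closed, 1823 gained and 46840 kept (ratio 8.28), and 9861 gained peaks were 1000 bp or more from a DN peak. The excess of gained over closed peaks called at an SP stage, 14.03 percentage points, was 13.1 with 50% overlap, 10.5 by summits, 15.2 at a q of 0.001, 17.8 at 1e-05, 17.0 with 4 equal lists and 22.2 among high peaks. The excess of kept over closed peaks was 53.8 with equal lists and 57.6 among high peaks. For promoters that excess was 15.4 points with 1000 bp, 13.0 with coding transcripts and 9.72 by summits, and coding transcripts put the median TSS distance at 16414.5 bp (closed), 16387 bp (gained) and 9641 bp (kept). Rising pairs were 5.72% one-to-one and 5.51% as merged regions, with promoter shares of 11.4% and 13.0%. Reversed log2 ratios among high peaks were -0.19 for CAGGTG, 0.57 for SP and KLF and 1.09 for YY1, and 0.55 for SP and KLF among peaks 1000 bp or more from the other stage. With equal numbers, closed minus gained peaks reversed to -14 (Notch), -168 (T lineage factors), -30 (T cell receptor signalling), -6 (positive selection), -11 (cell cycle) and -6 (housekeeping). The causes were not tested. The merged regions and the motif search by distance were added after seeing the data. Signal under the calling threshold and the spread between mice cannot be seen in these lists.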
